A study of Mus musculus with 12 samples.

Results

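The ribosomal protein pseudogenes described here were 154 genes of the 55573 in the count table. A gene was a member if its symbol began with Rpl or Rps and contained -ps, and if the authors' YTHDF1 comparison listed it; names and that list chose the members, and no difference between groups did. The count table held 314 genes named in this way, of which 40 were at 0 in all 12 libraries and 120 had counts but were not in the authors' list. Each member was set beside its parent gene, taken as the symbol before -ps, which gave 52 parents. The members carried the names of large subunit proteins in 92 cases and of small subunit proteins in 62. Their annotation was processed pseudogene for 142, transcribed processed pseudogene for 7 and protein-coding for 5 (Rpl9-ps6, Rpl10-ps3, Rps18-ps5, Rps18-ps6 and Rpl36a-ps1). They lay on 20 chromosomes, and 148 had a single annotated exon.

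Ribosomal proteins assemble with ribosomal RNA into the large and small subunits of the ribosome, and their mRNAs are short, abundant and present in every cell type. Processed pseudogenes arise when a spliced mRNA is reverse transcribed and inserted elsewhere in the genome, so that they lack introns, resemble the coding sequence of the parent and are numerous for highly expressed genes such as these. The YTHDF proteins reside in the cytoplasm and recognise N6-methyladenosine (m6A), a base modification placed on many long neuronal mRNAs, often near the stop codon.

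Primary hippocampal neurons from newborn C57BL/6 mice of both sexes were cultured for 14 days with Ara-C, an inhibitor of dividing cells. For dissociated cultures the methods also describe TTX and D-AP5, added before harvest to suppress synaptic activity. The RIP section does not say whether they were used. Each protein was pulled down with its own antibody (RNA immunoprecipitation, RIP), and the RNA bound to it was sequenced beside the RNA of the lysate before pull-down (Input). Each of the 4 groups, Input and the RIPs of YTHDF1, YTHDF2 and YTHDF3, had 3 replicates, and per the methods each replicate was a pool of culture wells whose lysate was divided among the 3 antibodies with a single Input. The 3 RIPs were therefore compared with the same Input libraries, and no pull-down with a control antibody was analysed here.

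Counts per library summed to between 9092494 and 13833973 for Input, 10037804 and 38909592 for YTHDF1, 6020072 and 9259893 for YTHDF2, and 21395271 and 22400602 for YTHDF3. In Input, 8 neuronal markers had a median level of 93.6 CPM per kilobase, where CPM are counts scaled to a common library size after TMM normalization, against 26.1 for 5 astrocyte markers, 1.30 for 5 oligodendrocyte markers and 0.0964 for 5 microglial markers. None of these markers was at 0 in Input. The summed astrocyte level ranged from 256 to 2520 CPM among the Input libraries, 330 to 1187 in YTHDF1, 650 to 1308 in YTHDF2 and 193 to 1555 in YTHDF3, and its part in the results below was not tested. In such bulk samples, fewer cells of a type and less RNA per cell cannot be told apart.

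The likeness between a member and its parent bears on every value below, because the authors counted a read for each gene it overlapped and for every place in the genome where it aligned. In GENCODE M21 transcripts (GRCm38), the aligned part of a member was identical to its parent at a median of 98.8% of positions (quartiles 97.4% and 99.5%), and 14 members were identical throughout the aligned part, which for 1 of them, Rpl10-ps3, left out 3.65% of its length. Of all 50-base windows of a member, the length of a single read, a median of 55.0% occurred unchanged in the parent (quartiles 31.9% and 78.2%). All windows occurred there for 13 members, at least 50% of them for 87, and none for 3 (Rpl18-ps1, Rpl36a-ps3 and Rps7-ps2). A member shared windows with a median of 15 other genes, and 24 members had no window that was their own. Whether a read in a shared window came from the pseudogene, the parent or another copy cannot be told apart in these counts.

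The sequences that follow are stretches of 60 bases from these transcripts, shown because the differences printed in capitals are what can separate a copy from its source. For each set, the stretch of coding sequence with the most differences over the genes shown was chosen, among those aligned without gaps. Differences can therefore be denser in it than over the whole copy. The first pair shows a copy with no difference in the stretch. Rps6, the small subunit protein phosphorylated after growth signals, is shown from chr4:86856806-86857326 on the minus strand, spliced, and Rps6-ps4 from chr2:75191763-75191822 on the minus strand.
Rps6: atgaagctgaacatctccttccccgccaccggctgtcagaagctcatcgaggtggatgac
Rps6-ps4: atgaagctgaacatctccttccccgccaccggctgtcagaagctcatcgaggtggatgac

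The Rps19 copies are shown because 1 of them was the only member enriched in any RIP. Rps19 is from chr7:24888456-24888956 on the plus strand, spliced. Rps19-ps1 is from chr14:53214076-53214135 and Rps19-ps2 from chr14:52903139-52903198, both on the plus strand, and Rps19-ps3 is from chr4:147821809-147821868 on the minus strand. Capitals mark bases that differ from Rps19, of which there were 4, 4 and 5.
Rps19: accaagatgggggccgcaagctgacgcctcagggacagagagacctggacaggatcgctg
Rps19-ps1: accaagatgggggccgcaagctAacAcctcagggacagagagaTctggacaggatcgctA
Rps19-ps2: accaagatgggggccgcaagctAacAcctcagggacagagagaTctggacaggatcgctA
Rps19-ps3: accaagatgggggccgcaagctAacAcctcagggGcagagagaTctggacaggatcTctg

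Rps15a and Rps12 are shown because their copies lay furthest below the parent. Rps15a is from chr7:118115182-118115241, Rps15a-ps5 from chr5:105797654-105797713 and Rps15a-ps7 from chr2:152185623-152185682, all on the minus strand. Rps12 is from chr10:23786778-23786837 on the minus strand, Rps12-ps9 from chr8:123206680-123206739 and Rps12-ps10 from chr2:122220050-122220109, both on the plus strand. Capitals mark bases that differ from the parent.
Rps15a: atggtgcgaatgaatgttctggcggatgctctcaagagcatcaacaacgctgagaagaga
Rps15a-ps5: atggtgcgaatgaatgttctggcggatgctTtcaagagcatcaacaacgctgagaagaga
Rps15a-ps7: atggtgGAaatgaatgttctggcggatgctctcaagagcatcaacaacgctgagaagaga
Rps12: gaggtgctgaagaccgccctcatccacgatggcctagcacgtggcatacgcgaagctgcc
Rps12-ps9: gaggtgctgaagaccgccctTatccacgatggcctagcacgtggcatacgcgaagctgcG
Rps12-ps10: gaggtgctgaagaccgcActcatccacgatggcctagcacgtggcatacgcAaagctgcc

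The last sequences belong to members whose name and sequence pointed to different genes. Rpl36a-ps3 (chr6:136488921-136488980, plus strand) differed at 1 base of 60 from Rpl36al (chr12:69182963-69183022, minus strand), a relative of Rpl36a, whereas Rpl36a (chrX:134586516-134586575, plus strand) differed from Rpl36al at 12. Rps7-ps2 (chr12:3522732-3522791, minus strand) matched Odc1 (chr12:17548439-17548599, plus strand, spliced), which encodes ornithine decarboxylase of polyamine synthesis, with 7 differences, and aligned to Rps7 over 1.71% of its length. Capitals mark bases that differ from Rpl36al or from Odc1.
Rpl36al: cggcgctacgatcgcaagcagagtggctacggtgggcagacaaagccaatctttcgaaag
Rpl36a: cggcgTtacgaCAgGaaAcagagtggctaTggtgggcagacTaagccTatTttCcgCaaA
Rpl36a-ps3: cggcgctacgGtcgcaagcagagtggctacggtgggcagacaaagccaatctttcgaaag
Odc1: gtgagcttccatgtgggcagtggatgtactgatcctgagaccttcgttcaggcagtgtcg
Rps7-ps2: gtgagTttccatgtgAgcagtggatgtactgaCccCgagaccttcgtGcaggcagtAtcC

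The pseudogenes were depleted together in all 3 RIPs. Their summed level was 3555, 3975 and 5718 CPM in the 3 Input libraries. It was 474, 1543 and 346 CPM in YTHDF1, 973, 1384 and 821 CPM in YTHDF2, and 417, 322 and 456 CPM in YTHDF3. Every RIP library lay below every Input library, and YTHDF1 replicate 2 stood 3.26 times above replicate 1 and 4.46 times above replicate 3. As a share of all counts, the members held 0.443% ± 0.126 (SD, n = 3) in Input, 0.0580% ± 0.0444 in YTHDF1, 0.112% ± 0.0380 in YTHDF2 and 0.0501% ± 0.0107 in YTHDF3 (n = 3 each).

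The parents summed to more than the members in each library. For 100 counts on the parents, the members held 65.9, 66.0 and 72.7 counts in Input. The ratio was 57.1, 70.6 and 66.4 in YTHDF1, 61.1, 63.8 and 58.4 in YTHDF2, and 53.2, 53.6 and 53.6 in YTHDF3. The YTHDF2 and YTHDF3 libraries lay below the 3 Input libraries and the YTHDF1 libraries overlapped them. Between 149 and 154 members had a count in each library.

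**Figure D1:**
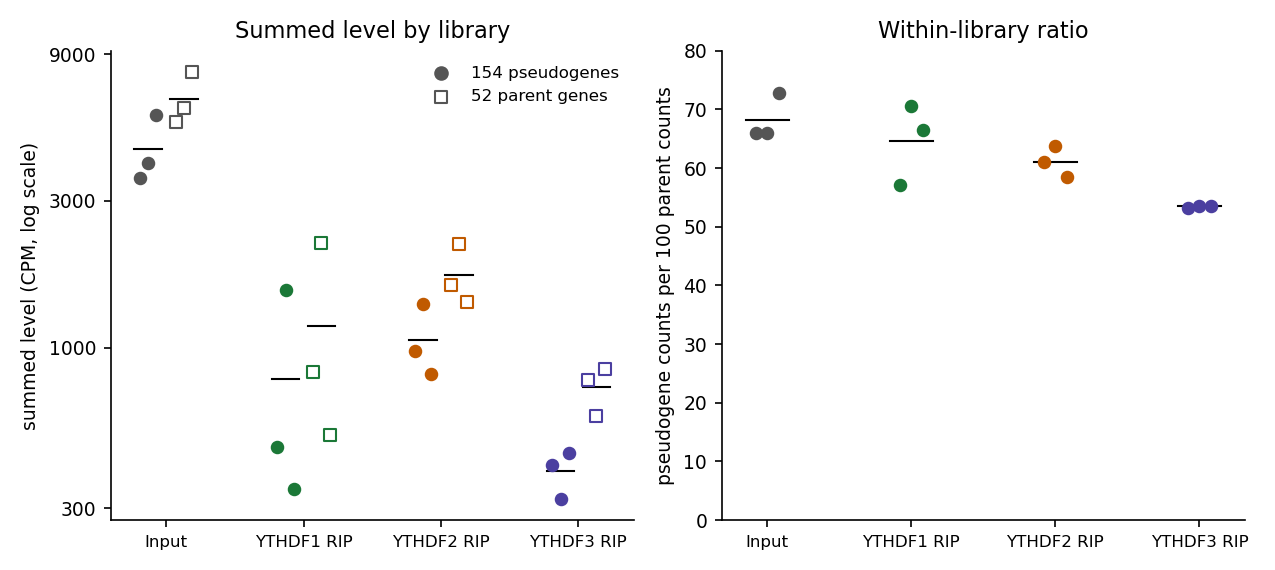
Left, summed level in CPM on a log axis for the 154 pseudogenes (filled circles) and their 52 parent genes (open squares), 1 point per library in the 4 groups, with a bar at the group mean; right, pseudogene counts for 100 parent counts in the same libraries. The pseudogenes sit between 3555 and 5718 CPM in Input and between 322 and 1543 CPM in the RIPs, while the ratio ranges from 53.2 to 72.7.

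Of the 154 members, 152 passed the filter of a mean of 10 counts after division by size factors and were tested, and Rpl12-ps1 (9.55) and Rps12-ps2 (9.88) were not. The lowest tested member stood at 10.5. A gene was called at an absolute log2 fold change of at least 0.32 against Input with an adjusted p of at most 0.05, from edgeR's quasi-likelihood test with Benjamini-Hochberg adjustment over the 16820 genes tested.

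In YTHDF1, 146 of 152 members were depleted and 1 was enriched, against a background of 26.1% depleted and 27.5% enriched among all genes tested. In YTHDF2, 113 were depleted and 0 enriched, against 19.3% and 16.1%. In YTHDF3, 150 were depleted and 0 enriched, against 23.2% and 16.7%. At an unadjusted p under 0.05, edgeR placed 0 members above Input in YTHDF2 and 0 in YTHDF3, and DESeq2 called 0 enriched in both.

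The median log2 fold change of the 152 members was −2.62 in YTHDF1 (quartiles −3.25 and −2.16), −2.42 in YTHDF2 (−3.14 and −1.39) and −3.90 in YTHDF3 (−4.46 and −3.14), beside 0.02, 0.02 and 0.05 for all genes tested. A member lay below all 3 Input libraries in all 3 RIP libraries in 145, 148 and 152 cases. All 3 RIPs depleted 113 members, YTHDF1 and YTHDF3 together 33 more, and YTHDF3 alone 4 (Rpl19-ps1, Rpl19-ps10, Rpl19-ps11 and Rps24-ps2). Rps19-ps3 and Rps7-ps2 were depleted in none in this fit, which had no replicate block. With the replicate number as a block in YTHDF3 and Input alone, both were depleted in YTHDF3 (edgeR, adjusted p = 0.0190 and 0.000923).

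These values were close to those of the intact genes, with which the members share reads, so the closeness is not an independent observation. The 52 parents were depleted in 52, 40 and 52 cases in YTHDF1, YTHDF2 and YTHDF3, with medians of −2.47, −2.01 and −3.43. Some of these calls depended on single libraries. In the 12 fits that left out 1 library, Rpl19 lost its YTHDF1 call in 10, and Rpl7 and Rpl5 their YTHDF2 calls in 9 and 4. Among 79 ribosomal protein genes, 78, 62 and 79 were depleted, with medians of −2.46, −2.0 and −3.41. Of 1494 processed pseudogenes that were not members, 48.7%, 44.7% and 55.1% were depleted, with medians of −0.92, −0.98 and −1.25. That list left out the members only, so copies of ribosomal protein genes under other names were not removed from it. The members had a median of 495.5 bases of annotated exon. With the trend of fold change on gene length removed, the members' medians were −1.47, −1.31 and −2.04 with 108, 81 and 117 depleted.

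The member with the highest level in Input was Rpsa-ps10, a copy of Rpsa, which encodes a small subunit protein also described as a laminin receptor. It stood at 296, 305 and 347 CPM in Input and at 21.5, 46.4 and 18.1 CPM in YTHDF1. It stood at 25.2, 23.9 and 25.7 CPM in YTHDF2 and at 19.1, 13.2 and 14.95 CPM in YTHDF3. All 9 RIP libraries lay far below the 3 Input libraries. Its log2 fold change was −3.46 ± 0.33 (SE) in YTHDF1, −3.66 ± 0.33 in YTHDF2 and −4.33 ± 0.34 in YTHDF3 (edgeR, adjusted p = 1.33e-05, 0.000177 and 2.45e-05), beside −3.34, −3.53 and −4.27 for Rpsa. Per kilobase of annotated exon, its Input level was 357 CPM against 179 for Rpsa, whose length pools the exons of all its isoforms. Of the windows of Rpsa-ps10, 74.6% occurred in Rpsa and 82.3% in any other gene. How many of its reads came from Rpsa-ps10 itself therefore cannot be told.

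Rps23-ps1, a copy of a small subunit gene whose protein sits at the decoding centre, stood at 123, 143 and 185 CPM in Input. It fell to 6.71, 20.3 and 4.22 CPM in YTHDF1, to 10.4, 16.0 and 10.9 CPM in YTHDF2 and to 6.64, 3.67 and 5.62 CPM in YTHDF3. No RIP library reached the Input libraries, and the log2 fold changes were −3.85, −3.60 and −4.82. Rpsa-ps9, another copy of Rpsa, gave −3.60, −3.92 and −4.44.

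Rps6-ps4, the copy printed above with no difference from Rps6, changed less. It stood at 112, 132 and 171 CPM in Input and at 23.0, 67.9 and 13.7 CPM in YTHDF1. It stood at 66.4, 73.1 and 39.1 CPM in YTHDF2 and at 30.01, 23.8 and 36.6 CPM in YTHDF3. The RIP libraries again lay below Input, but replicate 2 of YTHDF1 was well above its 2 companions. The log2 fold change was −1.99 ± 0.49 in YTHDF1 and −2.20 ± 0.49 in YTHDF3 (edgeR, adjusted p = 0.00539 and 0.00436), and −1.22 ± 0.48 in YTHDF2, which missed the threshold (adjusted p = 0.0697). Without YTHDF1 replicate 2 or 3 the YTHDF2 value passed (adjusted p = 0.00724 and 0.0236), as it did with the replicate number as a block in YTHDF2 and Input alone (edgeR, adjusted p = 0.0383). Rps6 itself gave −1.99, −1.20 and −2.16. Since 100% of the windows of Rps6-ps4 occurred in Rps6 and 0 were its own, these are not separate measurements.

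Rpl19-ps11, a copy of a large subunit gene that overlaps an exon of another gene on its strand, stood at 96.3, 111 and 151 CPM in Input. It stood at 17.9, 96.5 and 15.2 CPM in YTHDF1, at 47.7, 89.0 and 41.2 CPM in YTHDF2 and at 16.0, 11.9 and 15.3 CPM in YTHDF3. YTHDF1 replicate 2 reached the lowest Input library. Only the YTHDF3 difference passed the test, at −3.05 ± 0.63 (edgeR, adjusted p = 0.00271), while those of YTHDF1 and YTHDF2 were −1.47 and −1.01 (adjusted p = 0.0564 and 0.206). Without YTHDF1 replicate 2 both passed (adjusted p = 7.1e-05 and 0.0156), with the YTHDF1 value at −2.92. With a replicate block in YTHDF1 and Input alone the YTHDF1 value was −2.12 and passed (edgeR, adjusted p = 0.0417). Rpl19 itself gave close values of −1.50, −1.03 and −3.02 in YTHDF1, YTHDF2 and YTHDF3. Rpl19-ps1, Rpl19-ps6 and Rpl19-ps10, 3 further copies, also overlap an exon of another gene on their strand. These 4 were the only such members.

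The lowest fold change in YTHDF2 belonged to Rpl39-ps, a copy of a gene for one of the smallest ribosomal proteins. It stood at 20.6, 23.5 and 30.8 CPM in Input, 2.20, 2.77 and 1.08 CPM in YTHDF1, 0.797, 2.09 and 1.12 CPM in YTHDF2, and 0.660, 0.148 and 0.331 CPM in YTHDF3. The 9 RIP libraries lay below the 3 Input libraries, the YTHDF3 libraries lowest. The log2 fold changes were −3.66, −4.23 and −6.02 ± 0.54 (edgeR, adjusted p for YTHDF3 = 3.42e-05). Rpl39 gave −3.81, −4.15 and −5.48.

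At the other end, Rpl3-ps1 and Rpl3-ps2, copies of a gene for a protein near the peptidyl transferase centre, were called with small changes. Rpl3-ps2 stood at 57.7, 58.6 and 92.1 CPM in Input and at 17.8, 47.7 and 21.2 CPM in YTHDF1. It stood at 29.6, 33.8 and 21.1 CPM in YTHDF2 and at 13.4, 14.1 and 18.9 CPM in YTHDF3. No RIP library reached the Input libraries. The log2 fold changes were −1.26, −1.30 and −2.17 for Rpl3-ps2 and −1.28, −1.38 and −2.17 for Rpl3-ps1, beside −1.50, −1.30 and −2.16 for Rpl3. The YTHDF2 call of Rpl3-ps2 was lost without Input replicate 3 or YTHDF2 replicate 3 (edgeR, adjusted p = 0.0517 and 0.0644). Rpl5-ps1 (−1.59, −1.21 and −1.98), Rpl5-ps2 (−1.75, −1.28 and −2.10) and Rpl7-ps8 (−2.17, −1.24 and −2.24) were in the same range, and Rpl5, whose protein joins the 5S ribosomal RNA, gave −1.70, −1.21 and −1.93. In YTHDF2 Rpl5-ps1 missed the threshold (edgeR, adjusted p = 0.0682) but passed without YTHDF1 replicate 2 or 3 (adjusted p = 0.0128 and 0.0494). Its YTHDF1 call was lost without YTHDF1 replicate 1 (edgeR, adjusted p = 0.0554). The YTHDF2 calls of Rpl5-ps2 and Rpl7-ps8 were lost in 5 and 9 of the 12 fits that left out 1 library. The call of Rpl7-ps8 was also lost with a replicate block in YTHDF2 and Input alone (edgeR, adjusted p = 0.0573).

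Copies of the same gene had similar fold changes. Over the 39 families with at least 2 tested members (140 members), the share of the variance of the log2 fold change that lay between families was 64.9% in YTHDF1, 87.5% in YTHDF2 and 79.3% in YTHDF3. Without Rps19-ps3 and the 3 members that shared no window with their parent, over 136 members, it was 86.6%, 95.4% and 95.8%. These are descriptions with no test, since copies of 1 gene share reads and libraries. In the 22 families with 3 or more members, the median distance between the highest and the lowest member was 0.73, 0.50 and 0.47.

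Among these 22 families, the most depleted in YTHDF3 by its median was Rps12, whose parent encodes a small subunit protein. Its 6 tested members lay between −6.06 and −5.67, far below Rps12 at −3.59. The 5 copies of Rpl35a lay between −4.97 and −4.81, beside −3.64 for Rpl35a. The least depleted of the 22 was Rps6, whose 4 copies lay between −2.37 and −2.20. In YTHDF2, all 8 copies of Rpsa, 7 of Rpl21, 6 of Rps12 and 5 each of Rpl35a, Rpl10, Rps2 and Rpl30 were called, and none of the 8 copies of Rpl31, 6 of Rpl17 or 5 of Rpl19. The difference between these families was not tested.

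**Figure D2:**
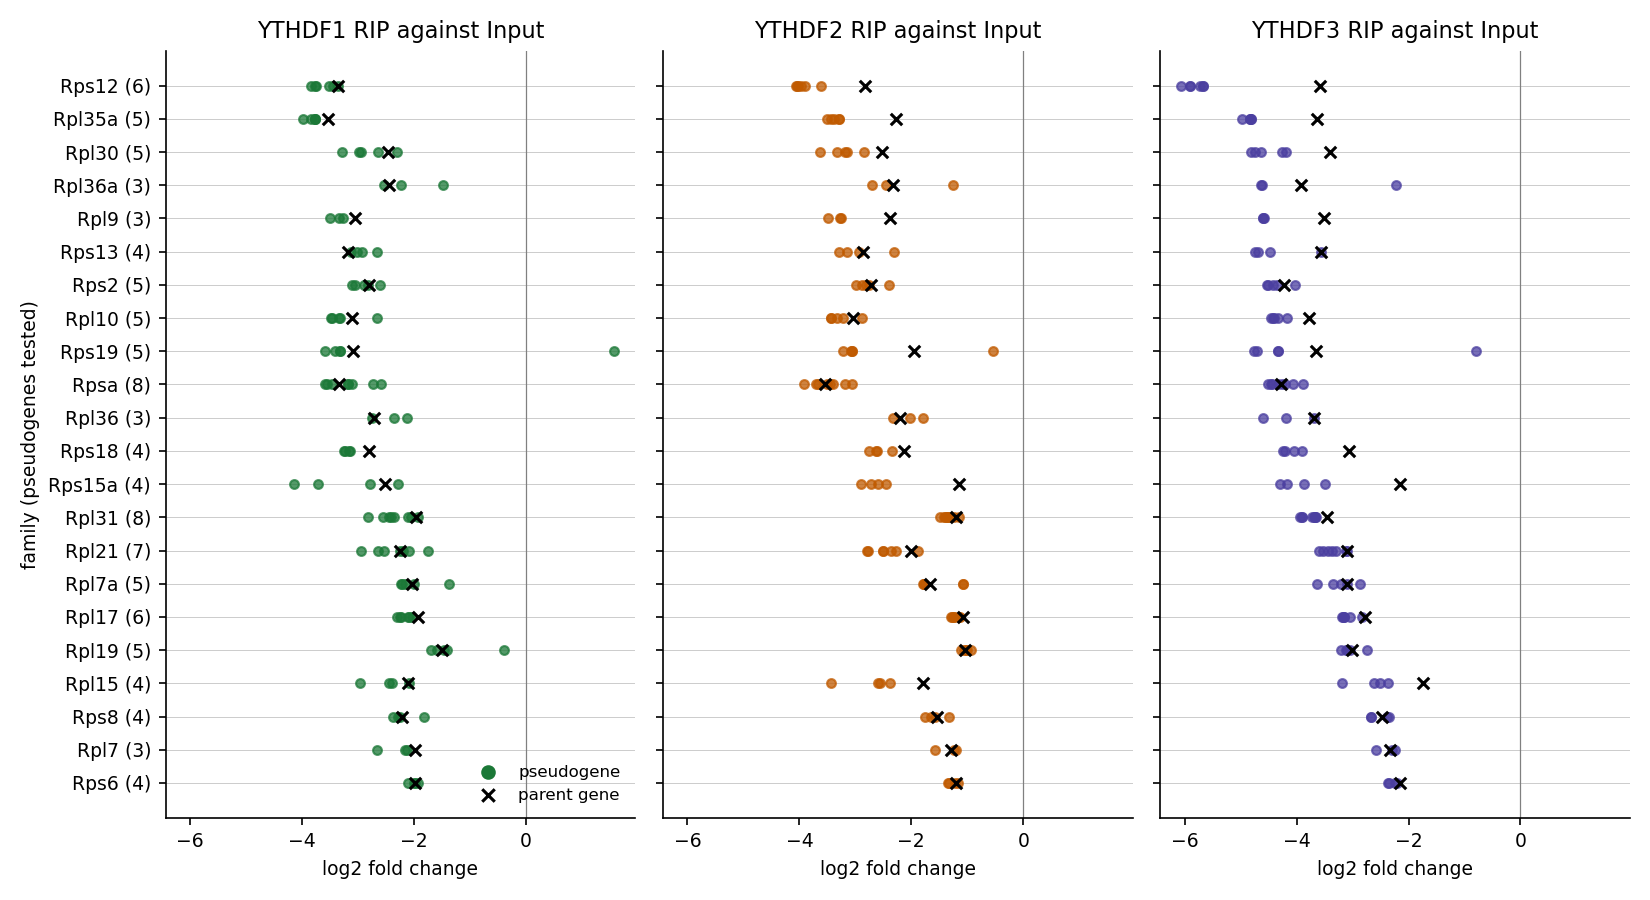
Log2 fold change against Input for each tested pseudogene (filled points) and its parent gene (crosses) in the 22 families with 3 or more tested members, ordered by the family median in YTHDF3, with the number of members after each family name. The 6 Rps12 copies lie between −6.06 and −5.67 in YTHDF3 with the parent at −3.59, the 4 Rps6 copies lie on their parent, and Rps19-ps3 at 1.57 in YTHDF1 is the single point to the right of 0.

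The 91 large subunit members had medians of −2.40, −2.02 and −3.64 with 88, 63 and 91 depleted, and the 61 small subunit members −2.96, −2.75 and −4.21 with 58, 50 and 59 depleted. The 5 members annotated as protein-coding were depleted in each RIP, and so were the 7 transcribed pseudogenes but for 1 in YTHDF2. All 20 members inside another gene on the same strand were depleted in YTHDF1 and YTHDF3 and 15 in YTHDF2. The 24 members with no window of their own were depleted in 24, 19 and 24 cases, and the other 128 in 122, 94 and 126.

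Beside its own parent, a member differed little in YTHDF1 and more in YTHDF3. The median difference in log2 fold change, member minus parent, was −0.13 in YTHDF1, −0.16 in YTHDF2 and −0.35 in YTHDF3 over 152 members. It lay within 0.5 for 130, 102 and 88 members. The member was the lower of the pair in 103, 118 and 133 cases, by at least 1 in 2, 22 and 33. The order of the members followed that of the parents, with Spearman's rho of 0.82, 0.81 and 0.71 across 152 members that share libraries and reads with their parents. With the trend of fold change on gene length removed, the sign of these medians turned, to 0.62, 0.47 and 0.75. Annotated exon, pooled over isoforms, had a median of 495.5 bases in the members and 2053 in their parents, each parent counted once per member. Whether length sets the sign was not tested. No test was made of the members against the parents as a list.

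**Figure D3:**
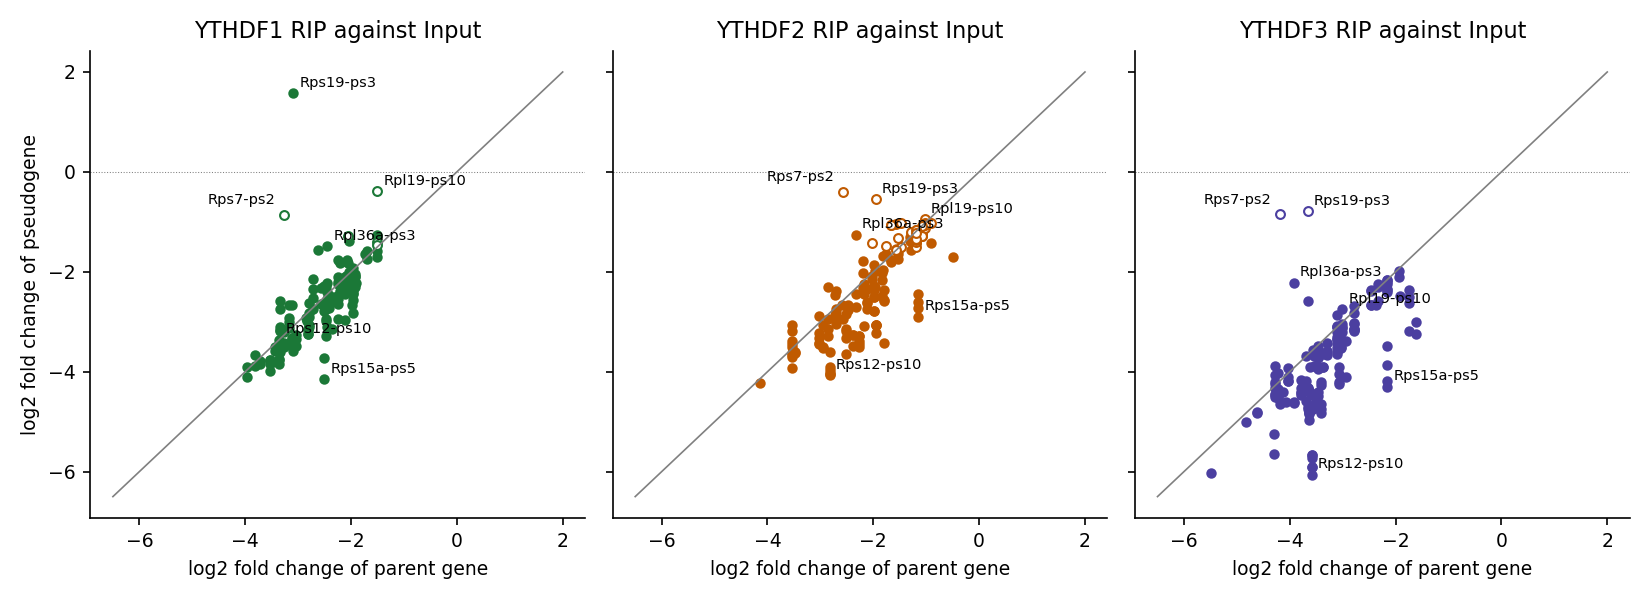
Log2 fold change against Input of each of 152 pseudogenes (vertical) against that of its parent gene (horizontal), 1 panel per RIP; filled points passed the test, open points did not, and the line marks equality. Most points lie near the line (130, 102 and 88 within 0.5), more of them lie below it in YTHDF3, and Rps19-ps3 and Rps7-ps2 lie above it in each panel.

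The members at least 1 below their parent came from few families. In YTHDF2 they were 5 copies of Rpl35a, 5 of Rps12, 4 of Rps15a, 4 of Rps19 and 1 each of Rpl30, Rpl22, Rpl15 and Rpl9. In YTHDF3, 6 copies of Rps12, 5 of Rpl35a, 4 of Rps15a, 3 of Rpl9 and 3 of Rpl30 were among the 33. In YTHDF1 there were 2, Rps15a-ps5 and Rps15a-ps7, both printed above.

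Rps15a-ps5 had 97, 108 and 101 counts in Input, 1, 11 and 13 in YTHDF1, 6, 14 and 6 in YTHDF2, and 14, 9 and 13 in YTHDF3. All RIP libraries lay below Input, and its counts for 100 counts of Rps15a were 15.1, 14.3 and 13.6 in Input against 1.5, 3.9 and 9.9 in YTHDF1. The log2 fold change was −4.15 ± 0.53, −2.90 and −4.30 (edgeR, adjusted p = 8.35e-05, 0.00152 and 0.000101). Rps15a, a gene for a small subunit protein, gave −2.51, −1.15 and −2.16, and its value in YTHDF2 missed the threshold (edgeR, adjusted p = 0.0583) but passed without YTHDF1 replicate 2 or 3 (adjusted p = 0.00566 and 0.0178) and with a replicate block in YTHDF2 and Input alone (adjusted p = 0.0376). Rps15a-ps7 gave −3.72, −2.60 and −4.18.

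Rps12-ps10 had 109, 107 and 178 counts in Input, 6, 38 and 3 in YTHDF1, 1, 7 and 8 in YTHDF2, and 6, 1 and 7 in YTHDF3. Each RIP library held far fewer counts than each Input library, also in YTHDF3, where the library totals were higher than in Input. Its log2 fold change was −3.36 ± 0.89 in YTHDF1, −4.07 ± 0.97 in YTHDF2 and −6.06 ± 1.03 in YTHDF3 (edgeR, adjusted p = 0.00772, 0.00767 and 0.00077), beside −3.36, −2.82 and −3.59 for Rps12. Rps12-ps9 (−3.44, −3.97 and −5.91) and Rps12-ps3 (−3.76, −4.04 and −5.67) gave close values. Rps12-ps3 was identical to Rps12 over its whole length, with 100% of its windows in Rps12 and 0 of its own. No window therefore separates Rps12-ps3 from Rps12, and the source of its distance from Rps12 was not tested. The SE of about 1 log2 unit limits how precisely these are known.

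Further named members lay below their parents in YTHDF3. Rpl35a-ps6 gave −3.99, −3.51 and −4.83, against −3.53, −2.27 and −3.64 for Rpl35a. Rpl34-ps1 gave −3.90, −3.51 and −5.25, against −3.97, −2.94 and −4.30 for Rpl34. Rpl15-ps5 gave −2.97, −3.43 and −3.19, against −2.11, −1.79 and −1.75 for Rpl15. Each parent encodes a large subunit protein.

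The share of a member's windows that occur in the parent moved with the number of reads it held. Across the 149 tested members that shared any window, members with at most 25% of windows shared had a median of 3.12 counts in Input for 100 counts of the parent (n = 23). The median was 10.8 (n = 40), 21.6 (n = 43) and 43.3 (n = 30) in the next classes, up to 50%, 75% and below 100%, and 58.0 where all windows were shared (n = 13). The rank correlation of share and ratio was 0.83, over members that share libraries and reads.

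The fold changes in YTHDF1 followed no such order. The median log2 fold change in YTHDF1 was −2.73, −2.48, −2.66, −2.63 and −2.54 from the class with the fewest shared windows to the class with all windows shared. In YTHDF3 the median was lower where more windows were shared, at −3.69, −3.66, −4.03, −4.05 and −4.19. The SD of the difference from the parent fell in YTHDF1, at 1.09, 0.45, 0.35, 0.18 and 0.18, the first of which includes Rps19-ps3. The median size of the difference changed less there, at 0.21, 0.24, 0.24, 0.19 and 0.13. In YTHDF3 the SD was 0.77, 0.74, 0.57, 0.48 and 0.60. The rank correlation of the shared windows with the size of the difference was −0.20 in YTHDF1, 0.03 in YTHDF2 and 0.16 in YTHDF3 over 149 members that share libraries and reads.

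**Figure D4:**
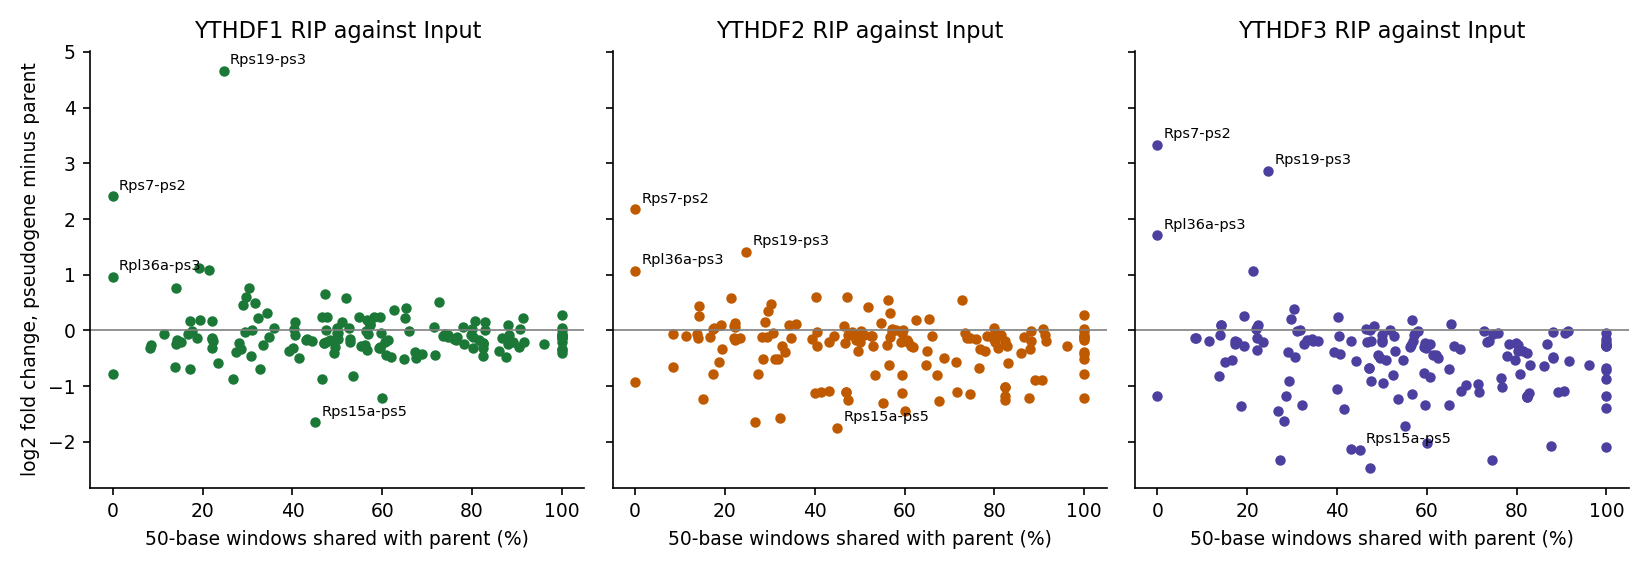
Log2 fold change of each pseudogene minus that of its parent (vertical) against the percentage of its 50-base windows that occur unchanged in the parent (horizontal), 1 panel per RIP, 152 members. In YTHDF1, over members that share any window, the SD is 1.09 in the class up to 25%, which includes Rps19-ps3, and 0.18 at 100%. The median size of the difference is 0.21 and 0.13 in these classes. The members at least 1 above their parent lie on the left, below 25%.

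Few members were at least 1 above their parent. Among them were Rpl19-ps10, Rps19-ps3 and Rps7-ps2 in YTHDF1, and Rpl36a-ps3, Rps19-ps3 and Rps7-ps2 in YTHDF2 and YTHDF3. Rpl19-ps10 stood at 1.98, 2.86 and 5.25 CPM in Input and 1.39, 5.69 and 0.613 CPM in YTHDF1, so that a single YTHDF1 library exceeded Input.

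Rps7-ps2 lay closer to Odc1, the gene whose sequence it carries, than to Rps7. It stood at 4.27, 4.03 and 4.83 CPM in Input, 1.27, 4.05 and 1.84 CPM in YTHDF1, 3.72, 3.59 and 2.69 CPM in YTHDF2, and 2.25, 2.15 and 2.88 CPM in YTHDF3. YTHDF1 overlapped Input through its replicate 2 alone, and the other RIPs lay below Input. The log2 fold change was −0.86 ± 0.37, −0.39 ± 0.38 and −0.85 ± 0.37 and did not pass the test (edgeR, adjusted p = 0.0717, 0.444 and 0.0874). With the replicate number as a block in YTHDF3 and Input alone, it was −0.80 ± 0.20 (edgeR, adjusted p = 0.000923) and passed. Without YTHDF1 replicate 2 the YTHDF1 value was −1.52 and passed (edgeR, adjusted p = 0.0015), as did the YTHDF3 value without YTHDF1 replicate 1 or 2 (adjusted p = 0.0494 and 0.0246). Odc1 gave −0.90, −0.28 and −0.59, and Rps7 gave −3.27, −2.58 and −4.18.

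Rpl36a-ps3 likewise lay close to Rpl36al. It stood at 14.7, 13.8 and 19.8 CPM in Input, 3.24, 11.1 and 2.92 CPM in YTHDF1, 7.04, 7.92 and 5.27 CPM in YTHDF2, and 3.999, 2.78 and 3.57 CPM in YTHDF3. The RIP libraries lay below Input. The log2 fold change was −1.48, −1.26 and −2.22 (edgeR, adjusted p = 0.0145, 0.0465 and 0.00235), beside −1.64, −1.38 and −2.35 for Rpl36al and −2.45, −2.33 and −3.93 for Rpl36a. Its call in YTHDF2 was lost in 9 of the 12 fits that left out 1 library, with adjusted p between 0.0553 and 0.14, and its call in YTHDF1 without YTHDF1 replicate 1 (edgeR, adjusted p = 0.0514).

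Rpl18-ps1, the remaining member that shared no window with the gene it is named for, gave −3.14, −3.09 and −4.11. Rpl18-ps1, Rpl36al, Odc1, Zfp933, Gmeb1, Rps15a-ps4, Rps19-ps1, Rps19-ps2, Rps24-ps2, Rpl19-ps1, Rpl19-ps6 and Rpl19-ps10 were picked out after their values were seen.

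Rps19-ps3 was the 1 member enriched in a RIP. Its locus, chr4:147821777-147822202 on the minus strand, shared 24.7% of its windows with Rps19, a small subunit gene mutated in an inherited anaemia, and had 237 windows of its own. It had 28, 23 and 17 counts in Input, 56, 90 and 112 in YTHDF1, 10, 8 and 12 in YTHDF2, and 37, 25 and 27 in YTHDF3. In CPM this was 2.13, 1.69 and 1.82 in Input, 6.48, 6.40 and 4.04 in YTHDF1, 1.33, 1.20 and 1.35 in YTHDF2, and 1.44, 0.926 and 0.893 in YTHDF3. The 3 YTHDF1 libraries lay above the 9 others and the libraries of the other RIPs below Input.

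The log2 fold change of Rps19-ps3 was 1.57 ± 0.30 in YTHDF1 (edgeR, adjusted p = 0.00107), and −0.54 ± 0.32 and −0.79 ± 0.30 in YTHDF2 and YTHDF3, which did not pass (adjusted p = 0.219 and 0.0559). With the replicate number as a block in YTHDF3 and Input alone it was −0.75 ± 0.28 and passed (edgeR, adjusted p = 0.0190), as did the value without YTHDF1 replicate 3 or YTHDF3 replicate 1 (adjusted p = 0.047 and 0.0287). Once the length trend was removed, the YTHDF3 value turned to 1.23. Over 22 alternative settings the enrichment in YTHDF1 ranged from 1.19 to 2.96 with adjusted p of at most 0.0378. Rps19 gave −3.09, −1.95 and −3.66. Rps19-ps1 and Rps19-ps2, which had the same count as each other in all 12 libraries, gave −3.32, −3.06 and −4.33. The 2 copies on chromosome 14 therefore give 1 measurement and not 2.

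Rps19-ps3 begins 783 bases after the annotated end of Zfp933, a zinc finger gene on the same strand, and Zfp933 was enriched in YTHDF1 too. Zfp933 stood at 15.01, 13.9 and 13.7 CPM in Input, 30.3, 60.8 and 32.2 CPM in YTHDF1, 7.44, 6.88 and 5.95 CPM in YTHDF2, and 10.7, 9.63 and 8.70 CPM in YTHDF3. Its log2 fold change was 1.53 ± 0.25, −1.08 ± 0.26 and −0.55 ± 0.25 (edgeR, adjusted p = 0.00043, 0.00839 and 0.099). The part of the neighbouring gene in the value of Rps19-ps3 was not tested. Of the 5 members with a tested gene ending within 5000 bases upstream on their strand, the only other within 1000 was Rps15a-ps4. Rps15a-ps4 gave −2.29, −2.73 and −3.49 at 535 bases from Gmeb1, which gave 0.44, 0.20 and 0.01.

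**Figure D5:**
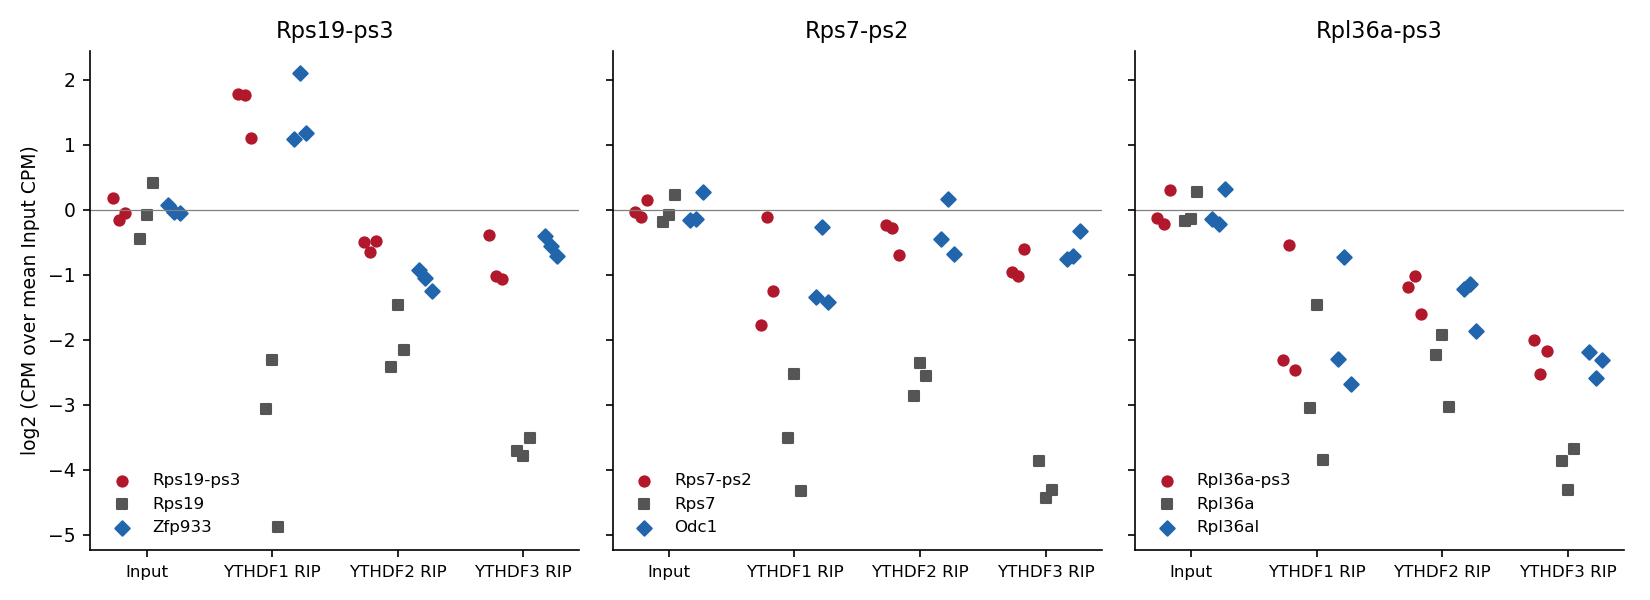
Log2 of CPM over the mean Input CPM in each library (vertical) by group (horizontal) for Rps19-ps3, Rps7-ps2 and Rpl36a-ps3 (circles), with the gene each is named for (squares) and Zfp933, Odc1 or Rpl36al (diamonds). In YTHDF1 Rps19-ps3 and Zfp933 lie above 0 in 3 of 3 libraries while Rps19 lies below, and Rps7-ps2 and Rpl36a-ps3 lie nearer to Odc1 and Rpl36al than to Rps7 and Rpl36a in YTHDF3.

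Between RIPs, a gene was called at a fold change of at least 2 with the same adjusted p. YTHDF1 and YTHDF2 differed at 1 member, Rps19-ps3, which was higher in YTHDF1 by 2.11 ± 0.32 on the log2 scale (edgeR, adjusted p = 0.000595), and 0 were lower, against a background of 11.4% higher and 6.13% lower. YTHDF1 exceeded YTHDF3 at 26 members from 17 families and was below it at 0, against 11% and 3.62%. YTHDF2 exceeded YTHDF3 at 28 members from 14 families, 5 of them copies of Rpl31 and 4 of Rps2, and was below it at 0, against 3.97% and 1.17%. The median difference over 152 members was −0.33, 1.11 and 1.47 in these comparisons, and YTHDF3 held the lowest fold change of the 3 RIPs for 146 members.

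Among the named members, Rps19-ps3 was higher in YTHDF1 than in YTHDF3 by 2.36 ± 0.30 (edgeR, adjusted p = 0.000364). Rpl39-ps was higher by 2.36 ± 0.52 (adjusted p = 0.00757), beside 1.67 for Rpl39.

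In the directions with 0 calls, edgeR placed 3 members lower in YTHDF1 than in YTHDF2 at an unadjusted p under 0.05, and 0 below YTHDF3 in YTHDF1 or YTHDF2; DESeq2 called 0 in each. The counts between RIPs depended on single libraries, most of all on YTHDF1 replicate 2, in which the members stood highest among the RIP libraries. Without that library, YTHDF1 was lower than YTHDF2 at 75 members with a median difference of −1.26. It was then higher than YTHDF3 at 3 and lower at 2, with a median of 0.14, and YTHDF2 was higher than YTHDF3 at 76. Against Input, YTHDF1 then depleted 150 members with a median of −3.75, and YTHDF2 depleted 143 in the fit whose groups share 1 estimate of the spread.

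The 26 members higher in YTHDF1 than in YTHDF3 became 40 without YTHDF1 replicate 1 and 62 without YTHDF1 replicate 3. They became 15 and 13 without Input replicate 2 and 3, and 11, 4 and 10 without YTHDF3 replicate 1, 2 and 3. The 28 members higher in YTHDF2 than in YTHDF3 became 56 without YTHDF1 replicate 3 and 10 without Input replicate 2. They became 4, 2 and 2 without YTHDF2 replicate 1, 2 and 3, and 1, 0 and 2 without YTHDF3 replicate 1, 2 and 3.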

How the data were processed

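The labels gave 12 libraries from mouse hippocampal neurons in 4 groups of 3 replicates. The deposited count table held, per gene of Ensembl release 97 (GRCm38), raw counts that the authors made with UMI-tools 1.1.1, cutadapt 3.4, STAR 2.7.7a and featureCounts 2.0.1, on the stated strand and including reads that align to several places or overlap several genes. Per the file headers, the deposited comparison tables held a mean normalized count (a signal), which was read only to list the members, and the authors' own fold changes and p-values, which were not used. Members and gene lists were chosen with earlier results of these data known.

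Genes with a mean count over size factors of at least 10 were kept, scaled by TMM and fitted together over 4 groups with edgeR 4.0.16 (R 4.3.3, limma 3.58.1) quasi-likelihood tests, with Benjamini-Hochberg adjusted p-values. The SE is the log2 fold change over the square root of F. The test was tested on simulated data. The alternatives were DESeq2 1.42.0, other scalings and filters, replicate blocks, removal of the trend on gene length (loess span 0.3) and leaving out each library. Members named were the 5 highest in Input and, at a mean normalized count of at least 20, the 3 highest and 3 lowest called fold changes and the 2 highest and 2 lowest differences from the parent in each RIP, any member enriched where 5 or fewer were, and the parents of all of these. Exceptions were picked after their values were seen.

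Replicate numbers were taken from the labels. Deviations from the group means correlated between same-numbered YTHDF3 and Input libraries (r = 0.84, 0.54 and 0.81), and the methods divide a lysate between pull-downs. The main fit had no replicate block, so its YTHDF3 calls ignore this pairing. Blocked values for YTHDF3 and Input alone are given beside it. The other pairs of groups did not all show such correlations, and their blocked values are given where they change a call. No 2 libraries held identical counts. Each culture pooled the pups of a litter, and p-values measure the spread between these libraries. Windows and alignments used GENCODE M21 transcripts. Some withheld items are not reported here.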

Additional observations from a re-analysis of the deposited data

Results flagged for a closer look

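Differences between RIPs that passed edgeR's quasi-likelihood test are listed here, since they set the pull-downs apart. Rps19-ps3 was the 1 member that differed between YTHDF1 and YTHDF2, higher in YTHDF1 by 2.11 on the log2 scale. Without YTHDF1 replicate 2, 75 members were lower in YTHDF1 than in YTHDF2, as were 15 with library size alone and 11 with a replicate block in the 2 groups alone. Rps19-ps3 was also higher in YTHDF1 than in YTHDF3 by 2.36, among 26 members that were higher there. Its YTHDF1 libraries lay above all others in 3 of 3 cases. Rpl39-ps was higher in YTHDF1 than in YTHDF3 by 2.36. Without YTHDF1 replicate 2 the 26 became 3. YTHDF2 exceeded YTHDF3 at 28 members, against 3.97% of all genes tested, and at 4, 2 and 2 members without YTHDF2 replicate 1, 2 and 3 and at 1, 0 and 2 without YTHDF3 replicate 1, 2 and 3. The groups hold 3 libraries each, too few for a test of single libraries that stand apart.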

How the results depend on the processing

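The direction of the members' depletion held under every alternative run, and the number depleted changed by up to 1.5 times. It was 108, 81 and 117 in YTHDF1, YTHDF2 and YTHDF3 with the length trend removed, 148, 120 and 149 with DESeq2, and 146, 121 and 152 with a replicate block in the 2 groups alone. Leaving out a library gave 123 to 150, 86 to 143 and 148 to 151. Enriched members in YTHDF1 were 0 at a minimum mean of 50, which leaves Rps19-ps3 untested, and in YTHDF3 1 with the length trend removed, with or without the block.

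Counts between RIPs moved most, and the cause was not tested. YTHDF1 was lower than YTHDF2 at 15 members with library size alone, 2 with no filter, 11 with 2 groups and a replicate block and 1 with the length trend removed, and at 0 to 75 without a library. It was higher at 0 with a minimum mean of 50. YTHDF1 exceeded YTHDF3 at 48 members with DESeq2, 4 with library size alone, 12 with TMM over protein-coding genes, 50 with no filter, 14 with a minimum mean of 50, 11 with the block in all libraries, 1 in 2 groups with or without the block, 7 with the length trend removed, and 5 with the block added. Leaving out a library gave 3 to 62, and 0 to 2 lower. YTHDF2 exceeded YTHDF3 at 60 with DESeq2, 68 with no filter, 13 with the block in all libraries, 8 in 2 groups with the block and 66 without it, 15 with the length trend removed, 5 with the block added, and 0 to 76 without a library.

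The median difference of members from parents was 0.62, 0.47 and 0.75 with the length trend removed and 0.67, 0.47 and 0.73 with the block added. In YTHDF3 it was −0.37 at a minimum mean of 50, −0.38 with the block in all libraries and −0.32 beside the closest coding gene in place of the parent, an alternative chosen after seeing the data, as were all others for these medians. Without a library it lay between −0.26 and −0.08 in YTHDF1, −0.23 and −0.13 in YTHDF2, and −0.39 and −0.31 in YTHDF3.

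Among the named genes, 2449 of 2604 alternative values kept direction and call, 92 lost and 54 gained the call, and 9 reversed, all with the length trend removed. Reversed values were 0.0788 for Rpl19-ps11, 0.65 (0.67 with the block) for Rps19-ps3 and 0.17 (0.16) for Rps7-ps2 in YTHDF2, and 1.23 (1.23) for Rps19-ps3 and 0.0843 (0.083) for Rps7-ps2 in YTHDF3. The methods describe a shared lysate for all RIPs and Input, but in pairs of groups other than YTHDF3 with Input the same-numbered libraries did not all deviate together, and whether their numbers mark the same lysate was not tested. The correlations of deviations were 0.09, −0.27 and −0.33 for YTHDF1 and 0.19, −0.33 and −0.32 for YTHDF2 against Input, 0.07, 0.55 and 0.36 between YTHDF1 and YTHDF2, 0.11, −0.34 and −0.35 between YTHDF1 and YTHDF3, and 0.17, −0.32 and −0.35 between YTHDF2 and YTHDF3. The block in YTHDF3 and Input alone changed no call there of a named member or parent other than Rps19-ps3 and Rps7-ps2. Depth limits members with few RIP counts, such as Rps12-ps10, and reads in windows shared with other copies cannot be placed.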
